A study of Homo sapiens with 12 samples.

Results

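MAP kinase cascades relay signals from growth factor and stress receptors to the nucleus through RAS, RAF, MEK and ERK, and through parallel JNK and p38 branches. The cascades induce their own inhibitors. Dual-specificity phosphatases (DUSP genes) remove the activating phosphates from MAP kinases, and Sprouty (SPRY) and Spred (SPRED) proteins act further up, on receptor, RAS and RAF signalling, so transcript levels of these genes are widely used as a readout of feedback. Described here are 10 of these feedback genes, 5 of the DUSP family (DUSP1, DUSP4, DUSP5, DUSP6 and DUSP10) and 5 of the Sprouty and Spred families (SPRY1, SPRY2, SPRY4, SPRED1 and SPRED2), among 60630 genes listed in both expression tables. They were picked by gene symbol, and each symbol occurred once in each table under the same identifier.

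The RNA came from SZ95 sebocytes, an immortalised human sebaceous gland line, so every library is of 1 cell line and the cells carry the changes that go with immortalisation. Cells were treated with LA+RVT, LA alone, PGN+RVT or PGN alone, with 3 libraries in each of the 4 groups, called biological replicates by the submitters. RVT is resveratrol, a plant polyphenol, by the series title. LA and PGN are not written out in the labels and are taken as linoleic acid, a lipid load, and bacterial peptidoglycan, an inflammatory stimulus. Doses, times and an untreated group are not among the labels used here, so each stimulus serves as the background for RVT and its own effect was not analysed here. Levels are TPM, a share of the library's transcripts corrected for transcript length, deposited in a separate table for each stimulus. Depth is unknown from TPM, and in bulk RNA fewer cells expressing a gene and less RNA per cell cannot be told apart. Log2 fold changes are differences of log2(TPM + 1), which understates changes of low genes, and errors are SD for levels and SE of the limma fit for fold changes.

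The libraries had similar numbers of genes at 1 TPM and similar totals, while marker sums and mitochondrial shares differed between groups. Between 14489 and 15452 genes reached 1 TPM, and deposited totals lay between 994373 and 997060 TPM. Several epithelial keratins were abundant (KRT7 at 1171 to 1820 TPM), but KRT14 stood at 1.3 to 11.7 TPM. Several sebaceous markers were also well expressed (SCD at 115.7 to 184.1 TPM, FADS2 at 51.9 to 127.6 TPM and PPARG at 20.8 to 39.2 TPM). PLIN2 was lower, at 3.59 to 11.1 TPM, AWAT2 and MC5R were listed at 0 in every library, and KRT79 reached 0.21 TPM. The summed level of 17 sebaceous and epithelial markers was 6767 to 6848 TPM with LA+RVT against 5774 to 5857 TPM with LA, and 8562 to 8641 TPM with PGN+RVT against 8287 to 8433 TPM with PGN. Of 5 endothelial markers, 4 stayed under 1 TPM in every library, and the sum, carried by CDH5, was 7.24 to 8.11 TPM with LA+RVT against 17.49 to 17.98 TPM with LA, and 23.4 to 24.2 TPM with PGN+RVT against 24.8 to 26.5 TPM with PGN. Mitochondrially encoded transcripts took 12.9% to 13.2% of TPM with LA+RVT against 13.8% to 14.3% with LA, and 10.1% to 11.1% with PGN+RVT against 11.2% to 11.6% with PGN. The part of these shifts in the results was not tested, apart from rescaling the libraries without mitochondrial and ribosomal protein genes. Fibroblast, melanocyte and immune lists summed to at most 16.3, 10.5 and 6.12 TPM.

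All 10 genes were expressed in every library, and the 3 DUSP genes at the top of the order were the same in all 4 groups. DUSP5, a nuclear phosphatase of ERK, led in each group at 47.3 ± 1.48 TPM with LA+RVT, 51.6 ± 1.28 TPM with LA, 59.0 ± 3.09 TPM with PGN+RVT and 47.6 ± 0.822 TPM with PGN (SD, n = 3 each). DUSP10, which acts on JNK and p38, ranked above DUSP4, a nuclear phosphatase of ERK and JNK, in the LA table, and below it in the PGN table. No library of these 3 genes overlapped the next gene in the order of its group. The order below them was close: in LA libraries DUSP6, SPRY1, SPRY2, DUSP1, SPRY4 and SPRED1 followed each other between 9.78 and 6.39 TPM, and each overlapped its neighbour. SPRY1 held a different place in the order of each table. It averaged 11.1 ± 0.895 TPM with LA+RVT and 9.35 ± 1.40 TPM with LA, but 4.67 ± 0.526 TPM with PGN+RVT and 2.21 ± 0.284 TPM with PGN, the lowest level of the 10 genes in both PGN groups. Levels from the 2 tables are set side by side and were not tested, since the tables are separate and name 1432 shared identifiers differently.

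**Figure D1:**
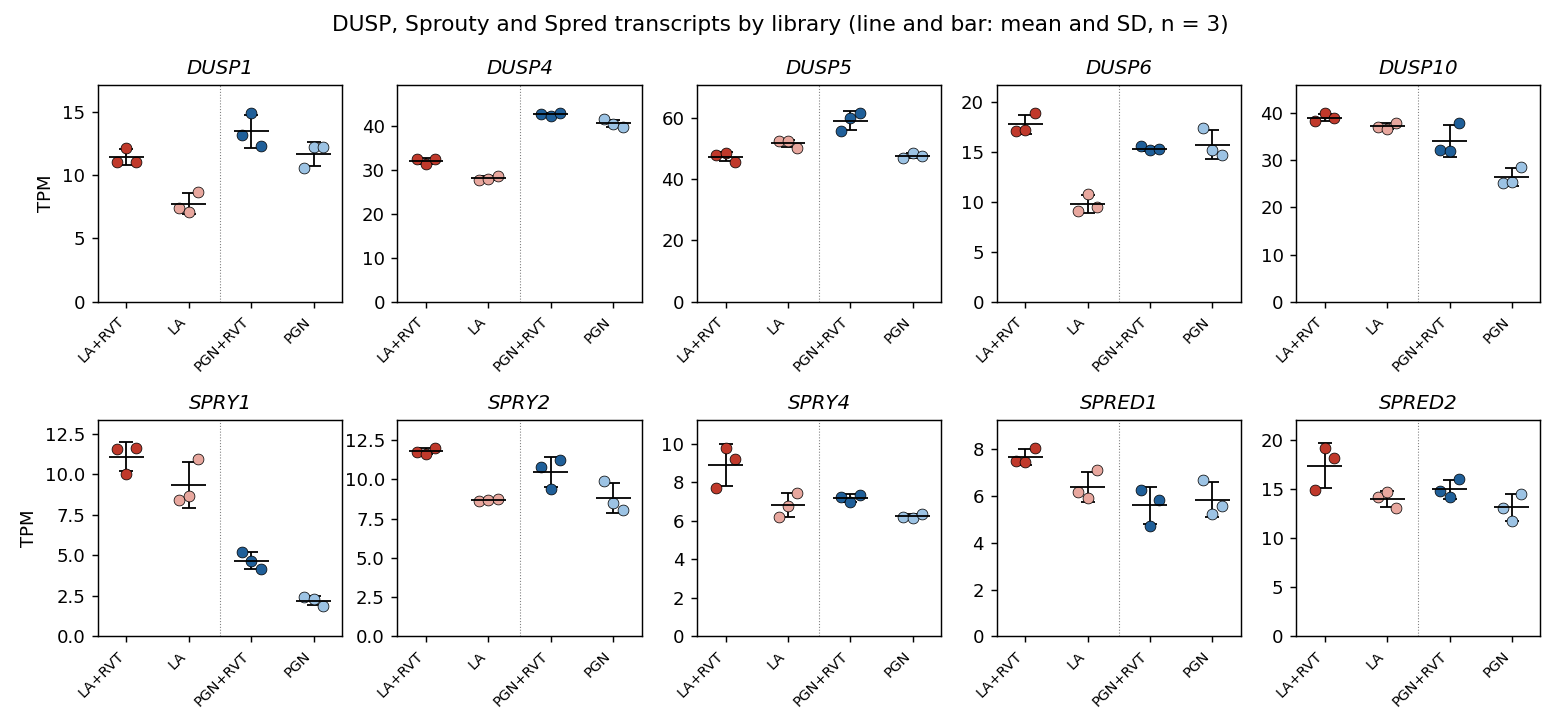
TPM of each of the 10 genes (vertical axis, starting at 0) in each library (points), by group; lines and bars are the mean and SD of 3 libraries. DUSP6 stands at 17.2 to 18.9 TPM with LA+RVT and 9.08 to 10.8 TPM with LA, while its PGN+RVT and PGN libraries overlap; SPRY1 shows its clearest separation between PGN+RVT and PGN.

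Promoters are shown for the genes with the largest log2 fold change of the 10 in each arm (DUSP6 and SPRY1) and for DUSP1, the one member with a matched motif. RefSeq promoters (build GRCh38.p14, 250 bases before to 50 bases after the start) were given for 8 of the 10 genes, all but DUSP4 and DUSP5. They were searched on both strands for TGACGTCA (cAMP response element), TGAGTCA (AP-1 site), CCGGAAGT (ETS site), CACGTG (E-box) and the CArG box of the serum response factor; none of the matches overlapped. DUSP1 held a cAMP response element at bases -125 to -118 and an E-box at bases -108 to -103 from its start, each once. The other 7 promoters held none of the 5 motifs in this window. Of all 35116 promoters of the same length, 1.85% held the cAMP response element, 4.95% the AP-1 site, 4.14% the ETS site, 7.26% the E-box and 1.29% the CArG box. In the sequences, capitals mark a matched motif, and all 3 are written 5′ to 3′ on the gene's strand. DUSP1 lies on the minus strand at chr5:172771146-172771445, DUSP6 on the minus strand at chr12:89352452-89352751 and SPRY1 on the plus strand at chr4:123396545-123396844.
DUSP1: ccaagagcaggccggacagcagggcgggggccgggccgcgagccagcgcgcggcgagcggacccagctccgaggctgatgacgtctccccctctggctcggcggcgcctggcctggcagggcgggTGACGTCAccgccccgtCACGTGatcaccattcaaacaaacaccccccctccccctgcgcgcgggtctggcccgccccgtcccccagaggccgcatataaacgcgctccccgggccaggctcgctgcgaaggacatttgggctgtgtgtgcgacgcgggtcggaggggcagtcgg
DUSP6: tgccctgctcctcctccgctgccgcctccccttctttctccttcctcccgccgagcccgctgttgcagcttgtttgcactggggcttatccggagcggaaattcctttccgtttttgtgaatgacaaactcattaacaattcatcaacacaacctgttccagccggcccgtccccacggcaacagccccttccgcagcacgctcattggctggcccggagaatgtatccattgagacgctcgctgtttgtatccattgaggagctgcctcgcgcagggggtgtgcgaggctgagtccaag
SPRY1: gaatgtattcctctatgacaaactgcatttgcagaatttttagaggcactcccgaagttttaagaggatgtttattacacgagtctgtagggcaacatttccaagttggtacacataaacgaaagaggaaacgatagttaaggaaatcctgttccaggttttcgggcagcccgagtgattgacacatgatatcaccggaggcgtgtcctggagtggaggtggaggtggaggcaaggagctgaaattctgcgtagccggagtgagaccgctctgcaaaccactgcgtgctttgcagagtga

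The comparison of LA+RVT with LA asked what resveratrol did to the feedback genes under the lipid stimulus. DUSP6, DUSP1, SPRY2 and DUSP4 rose with RVT, by 1.82, 1.47, 1.36 and 1.14 times in mean TPM, and none of the 10 was called lower. In the limma fit 4 of 10 genes were higher and 0 lower at an adjusted p under 0.05. At that threshold 10.7% of all 15409 genes tested were higher and 5.07% lower. At an unadjusted p under 0.05 the counts of the 10 genes were 7 and 1. Shares of all genes at an unadjusted p were not counted, here or for the unadjusted counts given below. Across the 10 genes the median change was 0.26 (log2), against 0.036 over all genes tested, and ranged from -0.12 to 0.80. Groups did not overlap for 9 of them, against 36.2% of all genes. They were 8 higher and 1 lower with RVT, against 23.4% higher and 12.8% lower of all genes. The excess of higher genes over all genes depended on scaling: 1645 were higher and 781 lower as deposited, 1041 and 1080 with library medians equalised, and 1014 and 971 with libraries rescaled without mitochondrial and ribosomal protein genes. Under those scalings 3 of the 10 genes were higher and 1, DUSP5, lower.

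DUSP6, a cytoplasmic phosphatase that is selective for ERK, had the largest log2 fold change of the 10 under LA. It stood at 17.2, 17.3 and 18.9 TPM in LA+RVT libraries, against 9.08, 10.8 and 9.49 TPM in LA libraries. Every LA+RVT library was above every LA library, with a gap wider than either group's range. The log2 fold change was 0.80 ± 0.081 (95% interval 0.61 to 0.995, limma adjusted p = 0.00163), and it was called in all 6 refits with a library dropped. DUSP1, an immediate early nuclear phosphatase of p38, JNK and ERK, stood at 11.1, 12.1 and 11.1 TPM in LA+RVT libraries against 7.43, 7.12 and 8.67 TPM in LA libraries. The 2 groups did not overlap. Its log2 fold change was 0.51 ± 0.091 (limma adjusted p = 0.0128).

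DUSP4 was higher by a small step in tight groups, at 32.6, 31.4 and 32.5 TPM with LA+RVT against 27.8, 28.04 and 28.7 TPM with LA. Its log2 fold change was 0.18 ± 0.043 (limma adjusted p = 0.0313). This call was lost without any 1 of the 6 libraries (adjusted p 0.0586 to 0.0937), with library medians equalised (0.0897) and with the rescaled libraries (0.0899). DUSP5 went the other way, at 47.8, 48.5 and 45.7 TPM with LA+RVT against 52.2, 52.4 and 50.1 TPM with LA. Each LA+RVT library was below each LA library, but the log2 fold change of -0.12 ± 0.042 was not called (limma adjusted p = 0.0976); it was called lower with medians equalised (0.0359) and with the rescaled libraries (0.0445). DUSP10 stood at 38.3 to 40.0 TPM with LA+RVT and 36.7 to 37.9 TPM with LA, a log2 fold change of 0.069 with a 95% interval of -0.027 to 0.16 (limma adjusted p = 0.306).

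Among the upstream inhibitors, SPRY2, which restrains growth factor receptor signalling to RAS and RAF, was the member that rose. It stood at 11.7, 11.6 and 12 TPM in LA+RVT libraries against 8.61, 8.70 and 8.74 TPM in LA libraries. The groups were tight and did not overlap, with a log2 fold change of 0.40 ± 0.061 (limma adjusted p = 0.00738) that was called in all 6 refits with a library dropped. SPRY4 is a further Sprouty inhibitor, and SPRED1 and SPRED2 are membrane-bound inhibitors of the RAS pathway. Their LA+RVT libraries were all above their LA libraries, with means 1.303, 1.199 and 1.242 times the LA mean. None of the 3 was called (limma adjusted p = 0.0895, 0.144 and 0.107), although SPRED2 was called without LA+RVT replicate 1 (0.0323). SPRY1 stood at 10.04 to 11.6 TPM with LA+RVT and 8.44 to 10.96 TPM with LA, so its groups overlapped (log2 fold change 0.23, 95% interval -0.042 to 0.50). No source used here states if the counting used strand. SPRY4-AS1, an antisense gene that overlaps SPRY4, was listed at 3.42 to 7.18 TPM with LA+RVT against 0.49 to 3.68 TPM with LA, and at 2.41 to 3.29 TPM with PGN+RVT against 1.31 to 2.90 TPM with PGN, so the 2 genes cannot be told apart with certainty. Antisense genes overlapping DUSP1 and DUSP6 stayed at or under 0.15 and 0.91 TPM.

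The comparison of PGN+RVT with PGN asked the same under the inflammatory stimulus. SPRY1, DUSP10 and DUSP5 rose with RVT, by 2.112, 1.290 and 1.238 times in mean TPM, and none was called lower. In the limma fit 3 of 10 genes were higher and 0 lower at an adjusted p under 0.05 (3 and 0 at an unadjusted p under 0.05), against 10.6% higher and 4.92% lower of all 14622 genes tested. The median log2 fold change of the 10 genes was 0.19, against 0.064 over all genes, and groups did not overlap for 6 of them, against 36.1% of all genes. All 6 were higher with RVT, as were 24.7% of all genes. Over all genes 1557 were higher and 720 lower as deposited, 850 and 1020 with library medians equalised, and 1169 and 773 in the rescaled libraries. DUSP10 was called under neither of those scalings.

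SPRY1, an inhibitor of receptor signalling to ERK, had the largest log2 fold change of the 10 under PGN. It stood at 5.21, 4.63 and 4.16 TPM in PGN+RVT libraries against 2.43, 2.31 and 1.89 TPM in PGN libraries. Every PGN+RVT library was above every PGN library, and the log2 fold change was 0.82 ± 0.13 (95% interval 0.51 to 1.13, limma adjusted p = 0.00769). The call held in all 6 refits with a library dropped, where its adjusted p was 0.0168 to 0.0389. DUSP5 stood at 55.5, 59.9 and 61.5 TPM with PGN+RVT against 46.9, 48.5 and 47.5 TPM with PGN, again without overlap. Its log2 fold change was 0.30 ± 0.055 (limma adjusted p = 0.0130), and it fell just short without PGN+RVT replicate 2 (0.0516) or 3 (0.0505). Without either of these 2 libraries, SPRY1 was the only called gene of the 10. DUSP10 stood at 32.2, 31.9 and 37.95 TPM with PGN+RVT against 25.2, 25.5 and 28.5 TPM with PGN. These groups did not overlap either, but the third library was highest in each. The log2 fold change was 0.35 ± 0.087 (limma adjusted p = 0.0351), and the call was lost in 5 of 6 refits with a library dropped (0.0617 to 0.106), all but the fit without PGN replicate 3, and with medians equalised (0.0662), the rescaled libraries (0.0529), no filter (0.0877) or a constant prior variance (0.0631).

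DUSP6, which had the largest change of the 10 under LA, was not called under PGN. It stood at 15.6, 15.2 and 15.3 TPM in PGN+RVT libraries against 17.4, 15.2 and 14.7 TPM in PGN libraries, and the groups overlapped. The log2 fold change of -0.031 had a 95% interval of -0.22 to 0.15 (limma adjusted p = 0.826), which does not reach its estimate under LA. DUSP1 and DUSP4 were higher without overlap, at 12.3 to 14.9 TPM with PGN+RVT against 10.6 to 12.2 TPM with PGN, and at 42.4 to 43.0 TPM with PGN+RVT against 39.9 to 41.7 TPM with PGN, and neither was called (limma adjusted p = 0.230 and 0.364). SPRY4 stood at 6.97 to 7.35 TPM with PGN+RVT and 6.14 to 6.37 TPM with PGN, also without overlap and not called (limma adjusted p = 0.175). SPRY2, SPRED1 and SPRED2 overlapped between the groups, with log2 fold changes of 0.22, -0.051 and 0.18.

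**Figure D2:**
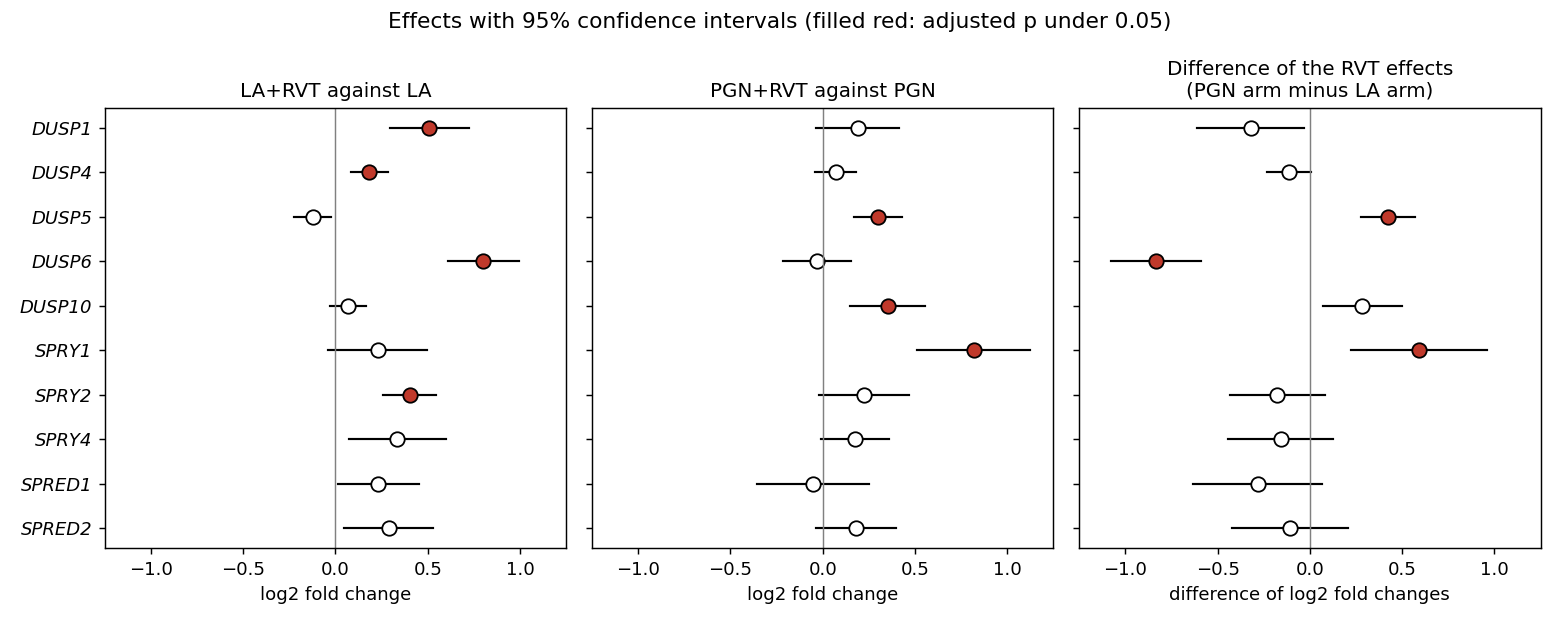
Log2 fold change with RVT under LA (left), under PGN (middle) and the difference of the 2 effects (right) for each gene, with 95% intervals; filled points have an adjusted p under 0.05. DUSP1, DUSP4, DUSP6 and SPRY2 are filled on the left, DUSP5, DUSP10 and SPRY1 in the middle, and DUSP5, DUSP6 and SPRY1 on the right.

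Of the 10 genes, 7 were called in an arm, and 0 in both arms by limma (1, DUSP5, in opposite directions at an unadjusted p under 0.05). Of all genes tested, 15.7% were called under LA and 15.6% under PGN at an adjusted p under 0.05. The share of all genes called in either arm or in both was not counted, so these counts are a description only. A call in 1 arm only does not show a difference between arms, so the difference of the RVT effects was tested in a fit of all 12 libraries. It differed for 3 genes: the effect on DUSP6 was lower under PGN than under LA, and those on DUSP5 and SPRY1 were higher, where 14.8% of all 15177 genes tested were called in either direction, 7.73% higher and 7.03% lower. DUSP6 had a difference (PGN arm minus LA arm, log2) of -0.83 ± 0.11 (limma adjusted p = 0.000647), and DUSP5 one of 0.42 ± 0.066 (limma adjusted p = 0.00158). Both held in all 12 refits with a library dropped. SPRY1 differed by 0.59 ± 0.17 (limma adjusted p = 0.0360), which was not called in 8 of 12 refits with a library dropped (0.0520 to 0.0834) nor without a filter on low genes (0.0873). The other 7 genes were not called. DUSP10 came closest (0.28 ± 0.098, limma adjusted p = 0.0771), and was called without PGN replicate 3 (0.0374). DUSP1 had a difference of -0.32 with a 95% interval of -0.61 to -0.029 (limma adjusted p = 0.137), DUSP4 one of -0.11 with an interval of -0.23 to 0.0089, and SPRY2 one of -0.18 with an interval of -0.43 to 0.080. For SPRY4, SPRED1 and SPRED2 the intervals ran from -0.63 at the lowest to 0.21 at the highest.

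Genes with the most similar pattern over the 12 libraries were sought for these 3 genes, on log2(TPM + 1) centred within each table, among 14126 genes. Closest to DUSP6 were HSPA8, a cytosolic chaperone, at a root mean square difference of 0.072 log2 units, then FST (0.079), which encodes the activin antagonist follistatin, and DCBLD2 (0.082). HSPA8 changed by 0.83 under LA and -0.043 under PGN on the log2 scale, beside 0.80 and -0.031 for DUSP6. Nearest to DUSP5 were VAMP8, ASB3 and SLPI (0.041, 0.041 and 0.042), the last a secreted protease inhibitor. Those near SPRY1 included UBALD2 (0.12) and MSMO1 (0.12), a sterol synthesis enzyme. These are descriptions over the libraries that the fits also used.

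Of the other dual-specificity phosphatases of MAP kinases, DUSP7, DUSP14 and DUSP3 rose under LA. Of 8 listed, 6 were tested under LA in the limma fit, with 3 higher and 0 lower (3 and 0 at an unadjusted p under 0.05), where 10.7% of all genes were higher and 5.07% lower. Their median log2 fold change was 0.14. Under PGN 7 were tested, with 0 higher and 0 lower (0 and 1 unadjusted), where 10.6% of all genes were higher and 4.92% lower, and the median was -0.064. The counts of the lists that follow, where at an adjusted p, are read against these same shares. DUSP7, a cytoplasmic ERK phosphatase related to DUSP6, averaged 12.7 ± 0.468 TPM with LA+RVT against 8.06 ± 0.724 TPM with LA (log2 fold change 0.59, limma adjusted p = 0.00493), and 14.8 ± 0.476 TPM with PGN+RVT against 13.9 ± 0.108 TPM with PGN (limma adjusted p = 0.387). The difference of its RVT effects was -0.51 ± 0.094 (limma adjusted p = 0.00465). DUSP14 averaged 57.5 ± 4.21 TPM with LA+RVT against 46.3 ± 0.261 TPM with LA (limma adjusted p = 0.0153; lost without LA replicate 2 or 3, at most 0.0532), and the difference of its effects was -0.38 ± 0.072 (limma adjusted p = 0.00492). DUSP3 had a log2 fold change of 0.23 under LA (limma adjusted p = 0.0234), a call lost in 5 of 6 refits with a library dropped (up to 0.0779) and under both other scalings.

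Among 16 other inhibitors of receptor, RAS and RAF signalling, 14 were tested under LA, with 2 higher and 0 lower by limma (4 and 1 unadjusted), and 12 under PGN, with 0 higher and 1 lower (1 and 1 unadjusted). These counts are near the shares of all genes (10.7% higher under LA, 4.92% lower under PGN). ERRFI1, a feedback inhibitor of the EGF receptor, averaged 225 ± 1.004 TPM with LA+RVT against 170 ± 3.42 TPM with LA (log2 fold change 0.40 ± 0.026, limma adjusted p = 0.000374), and its effect was smaller under PGN (difference -0.30 ± 0.068, limma adjusted p = 0.0138). SH2B3, an adaptor that restrains cytokine receptor signalling, moved in opposite directions. It averaged 16.2 ± 0.698 TPM with LA+RVT against 12.6 ± 0.105 TPM with LA (limma adjusted p = 0.0113), and 14.4 ± 0.692 TPM with PGN+RVT against 17.98 ± 0.402 TPM with PGN (limma adjusted p = 0.0226; lost in 5 of 6 refits with a library dropped, up to 0.0795). The difference was -0.64 ± 0.079 (limma adjusted p = 0.000344) and held in all 12 refits with a library dropped.

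Of 20 genes of the RAS to ERK cascade, all tested, 3 were higher and 0 lower under LA by limma (7 and 2 unadjusted), and 0 were higher and 0 lower under PGN (4 and 1 unadjusted), where 10.7% of all genes were higher under LA and 10.6% under PGN. The 3 were PTPN11, MAP2K1 and HRAS (log2 fold changes 0.16, 0.22 and 0.27), called in 2, 2 and 1 of 6 refits with a library dropped. The LA count depended on processing. It was 0 higher and 2 lower once library medians were equalised, 0 and 1 in the rescaled libraries, and 0 and 0 with a constant prior variance. Of 19 genes of the JNK and p38 cascades, 4 were higher and 0 lower under LA (8 and 1 unadjusted), where 10.7% of all genes were higher. Under PGN 1 was higher and 2 lower (3 and 2 unadjusted). The PGN counts were 0 and 2 under both other scalings, and 0 and 1 without a filter or with the replicate block. They were 0 and 0 with a constant prior variance, and 2 and 2 with the filter at 5 TPM. MAPKAPK3 had the smallest p of the list under LA (log2 fold change 0.29, limma adjusted p = 0.00611). It was not called under PGN (0.078, limma adjusted p = 0.433). MAPK12 was the higher gene under PGN (0.30, limma adjusted p = 0.0498), called in 1 of 6 refits with a library dropped. It was not called under LA (0.17, limma adjusted p = 0.123). MAP2K3, a kinase that activates p38, averaged 93.7 ± 5.85 TPM with LA+RVT against 73.2 ± 3.90 TPM with LA (limma adjusted p = 0.00996). With PGN+RVT it averaged 88.7 ± 1.12 TPM against 104.7 ± 5.71 TPM with PGN (limma adjusted p = 0.0228). That call was lost in 4 of 6 refits with a library dropped (up to 0.0802) and with a constant prior variance (0.0606). JUN, an AP-1 factor, had log2 fold changes of 0.29 under LA (limma adjusted p = 0.0114) and -0.24 under PGN (limma adjusted p = 0.0400). Its PGN call was lost in all 6 refits with a library dropped (0.0619 to 0.136). It was also lost without a filter, with a constant prior variance and with the replicate block (up to 0.0909). In the difference of the RVT effects, 1 RAS to ERK gene of 20 was higher and 0 lower by limma. Of the 19 JNK and p38 genes, 0 were higher and 3 lower, against 7.73% higher and 7.03% lower of all genes tested. The higher gene was MAPK3 (0.36 ± 0.096, limma adjusted p = 0.0280), called in 6 of 12 refits with a library dropped. Its call was also lost without a filter, with medians equalised, with a constant prior variance and with the replicate block (up to 0.0698). The lower genes were MAP2K3 (-0.59 ± 0.079, limma adjusted p = 0.000647), JUN (-0.53 ± 0.077, 0.00101) and MAP2K4 (-0.35 ± 0.094, 0.0284), the last called in 4 of 12 refits.

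Genes known to be induced through ERK, a list of 20 that holds none of the 10 feedback genes, were called in many cases. The list was chosen with earlier results of these data known, so its counts are a description only. By limma 13 were higher and 1 lower with RVT under LA, where 10.7% of all genes were higher and 5.07% lower, with a median log2 fold change of 0.23. Under PGN 4 were higher and 9 lower, where 10.6% of all genes were higher and 4.92% lower, with a median of -0.10. With library medians equalised the counts were 11 and 1 under LA and 2 and 10 under PGN, and in the rescaled libraries 11 and 1 and 4 and 9. In the difference of the RVT effects 15 of 20 were lower and 0 higher by limma (15 and 2 unadjusted), against 7.03% lower of all genes tested. In the rescaled libraries 14 were lower and 1 higher. FOSL1, an AP-1 factor whose level follows ERK activity, averaged 274 ± 16.9 TPM with LA+RVT against 160 ± 6.19 TPM with LA, and 205 ± 11.4 TPM with PGN+RVT against 411 ± 25.2 TPM with PGN (difference -1.76 ± 0.083, limma adjusted p = 3.49e-07). PHLDA1 averaged 21.5 ± 0.911 TPM with LA+RVT against 16.9 ± 0.364 TPM with LA, and 17.97 ± 0.720 TPM with PGN+RVT against 35.9 ± 1.75 TPM with PGN (difference -1.29 ± 0.078, limma adjusted p = 2.39e-06). HBEGF, a ligand of the EGF receptor, was likewise higher with RVT under LA and lower under PGN, with a difference of -1.12 ± 0.079 (limma adjusted p = 7.88e-06). EREG, another such ligand, was lower with RVT in both arms, at 11.8 ± 1.19 TPM with LA+RVT against 19.1 ± 0.443 TPM with LA and at 16.3 ± 1.70 TPM with PGN+RVT against 60.1 ± 8.39 TPM with PGN. EGR1, an immediate early factor, was higher in both arms (log2 fold changes 1.53 and 1.19), and MYC was higher under LA (0.71, limma adjusted p = 0.000256) and not called under PGN (-0.087, limma adjusted p = 0.233). CCND1, the cyclin that drives entry into the cell cycle, averaged 301 ± 9.86 TPM with LA+RVT against 193 ± 4.69 TPM with LA (limma adjusted p = 0.000199). It was also called higher under PGN, at 260 ± 8.87 TPM with PGN+RVT against 225 ± 2.88 TPM with PGN (log2 fold change 0.21, limma adjusted p = 0.0147), a call lost in 3 of 6 refits with a library dropped (up to 0.0651) with medians equalised (0.0587) and with a constant prior variance (0.0620).

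**Figure D3:**
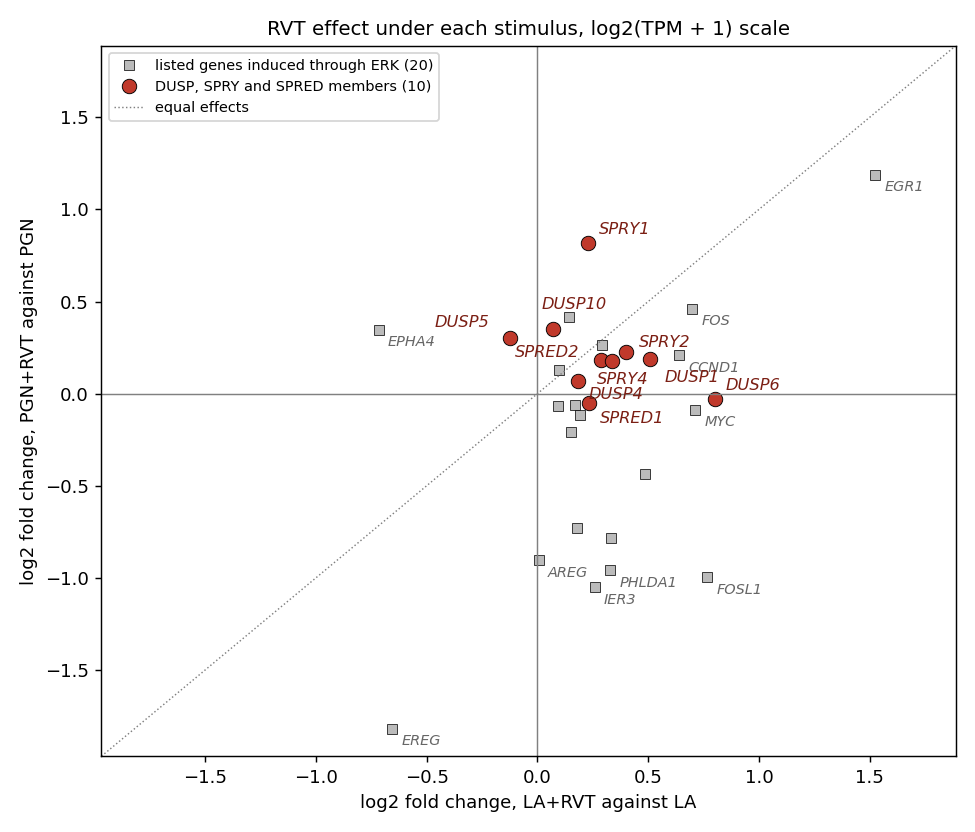
Log2 fold change with RVT under LA (horizontal axis) and under PGN (vertical axis) for the 10 feedback genes (circles) and 20 listed genes induced through ERK (squares); the dotted line marks equal effects. The feedback genes lie between -0.051 and 0.82 on the vertical axis, and the genes induced through ERK spread from EREG (-1.82) to EGR1 (1.19).

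**Figure D4:**
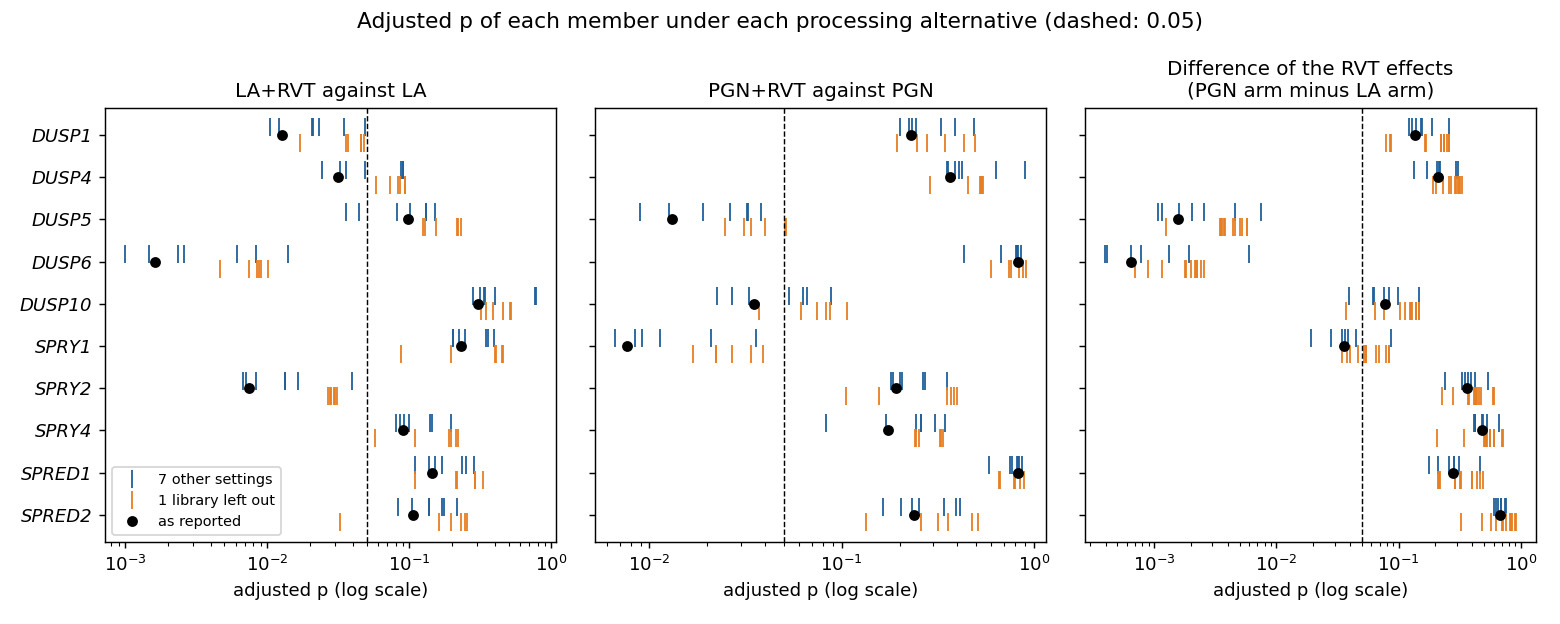
Adjusted p of each gene (horizontal, log scale) in the 3 comparisons: black points are the values reported, blue ticks other processing settings, orange ticks fits without 1 library, and the dashed line is 0.05. The ticks of DUSP1, DUSP6 and SPRY2 under LA, of SPRY1 under PGN, and of DUSP5 and DUSP6 in the difference lie left of the line. Ticks lie on both sides for DUSP4, DUSP5 and SPRED2 under LA, DUSP5 and DUSP10 under PGN, and DUSP10 and SPRY1 in the difference.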

How the data were processed

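RNA of 12 libraries of SZ95 sebocytes (3 each of LA+RVT, LA, PGN+RVT and PGN, grouped and numbered by the sample titles) was measured. The authors deposited TPM to 2 decimals, in 1 table per stimulus. The tools named in the submitters' processing notes are RSEM 1.3.1, HISAT2 2.1.0 and DESeq2 1.24.0, and the build is GRCh38.p13; what each was used for, and the annotation release, are not stated there. TPM is a share, so it keeps no depth, no counting interval is given, and a gain of some genes lowers the values of others.

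Analysis used log2(TPM + 1) and genes averaging 1 TPM or more within a fit, which all 10 members did. Groups were compared with limma (version 3.58.1, R 4.3.3), two-sided with a trended prior, adjusted by Benjamini-Hochberg over every gene tested, threshold 0.05. Each arm used its 6 libraries, and the difference of the RVT effects used all 12, as a contrast of differences within a table. The fit was tested on simulated data. Levels in the 2 tables were not tested against each other. Members and gene lists were chosen with earlier results of these data known. All 10 members are named, with up to 3 called genes of each list per direction and comparison by smallest p, whose values in the other comparisons may be given too; not all such genes are printed. Likeness is the root mean square difference over 12 libraries, for members called in both arms or in the difference, with 3 genes each, of which 1 is not reported here. Overlapping genes came from GENCODE 29 and promoters from RefSeq. The submitters call the libraries biological replicates, but nothing further states that they came from separate cultures. The p-values therefore cover only the spread among these libraries, which may be technical. Alternatives were another pseudocount, another filter or none, 2 other scalings, a constant prior variance, a replicate block and leaving out each library.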

Additional observations from a re-analysis of the deposited data

Results flagged for a closer look

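The effect of RVT on 3 of the 10 genes differed between the stimuli by the test of the difference itself, with values as PGN arm minus LA arm on the log2 scale. DUSP6 had a difference of -0.83 (limma adjusted p = 0.000647), with every LA+RVT library above every LA library and overlapping groups under PGN. DUSP5 had a difference of 0.42 (limma adjusted p = 0.00158): all 3 LA+RVT libraries were below the LA libraries and all 3 PGN+RVT libraries above the PGN libraries. SPRY1 had a difference of 0.59 (limma adjusted p = 0.0360), with all 3 PGN+RVT libraries above the PGN libraries and overlapping groups under LA; it missed the threshold in 8 of 12 refits with a library dropped (0.0520 to 0.0834). Causes of these differences were not tested.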

How the results depend on the processing

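Over all genes, the 2426 calls under LA came to 1610 without a filter and 1502 with the replicate block, and the 2277 under PGN to 1384 without a filter. Leaving out 1 library gave 1428 to 1690 calls under LA, 1095 to 1861 under PGN and 1714 to 2250 in the difference. Every refit of an arm had 1 library fewer and gave fewer calls than the full fit. Under LA the fall was over 1.5 times without LA replicate 1, 2 or 3 (1459, 1428 and 1463) or LA+RVT replicate 2 (1546). Under PGN it was so without PGN replicate 2 (1236) or PGN+RVT replicate 1, 2 or 3 (1095, 1174 and 1201). The smaller group and the library left out cannot be told apart in these counts. Of the 10 genes, 3 to 4 were called under LA, 1 to 3 under PGN (1 without PGN+RVT replicate 2 or 3) and 2 to 3 in the difference. Under PGN, with 1 library left out, DUSP6 ranged from -0.078 to 0.039 (log2), positive without PGN replicate 1, and SPRED1 from -0.12 to 0.049, positive without PGN replicate 1 (0.036) or PGN+RVT replicate 2 (0.049); none of these was called. The cause of these shifts was not tested. SPRY1 under PGN was not tested at a mean of at least 5 TPM. Same-numbered libraries did not deviate together (correlations of -0.070 to -0.0068 under LA and 0.0081 to 0.041 under PGN), and 0 of 3 LA+RVT and 2 of 3 PGN+RVT libraries correlated best with their own number, so the numbers were not read as pairs. The replicate block called 3 of the 10 genes under LA (DUSP4 lost, 0.0876), 3 under PGN and 4 in the difference (DUSP10 gained, 0.0393). Depth is unknown, so the smallest change that could be seen cannot be set from counts.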
